A study of Rattus norvegicus with 53 samples.

Results

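The genes described here are the protein translocases of the mitochondrial membranes and the SLC25 carriers, measured in rat muscle cells with and without insulin. A member is a gene whose symbol begins with Timm, Tomm or Slc25a followed by a number, without Slc25a20, read from probe sets that carry this symbol alone. Where a gene had several probe sets, the brightest by mean over all arrays was taken. The rule gave 62 members of 14218 genes with a single symbol, 23 of them translocases and 39 carriers. A filter on low values kept 56 members, 22 translocases and 34 carriers, whose mean levels ran from 5.30 (Slc25a53) to 13.08 (Slc25a3) on the log2 scale. The 6 members below the filter were Slc25a21, Slc25a27, Slc25a31, Slc25a34, Slc25a35 and Timm8a2, with mean levels of 4.24 to 5.01. Timm23, the channel of the presequence translocase, was not a member because its probe set carries the symbols of several genes, nor was Slc25a51, whose probe sets are matched to 2 gene records of that symbol.

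The cells were L6, an established rat skeletal muscle line, fused into myotubes in low serum and kept without serum for 8 hours. Replicate plates then received either fresh medium without insulin (control culture) or medium with 20 nM insulin (insulin culture), and RNA was taken every 20 minutes. RNA from 3 successive samples was pooled into 1 array per hour, so each culture has hours 1 to 8 and a time 0 taken before insulin. The experiment was done on 3 days with the same cell line. The labels give replicates a, b and c, and each letter is taken here as 1 day, which the labels do not state. The 3 days gave 3 arrays per culture and hour, or 53 in all. Insulin hour 3 alone has 2 arrays (letter a is not among them). Since all arrays come from a single cell line, p-values measure a spread between arrays of that line, from different days and plates. In means over several hours, the main test counts arrays of the same day as independent. A deviation that a day keeps over its hours is therefore not fully carried in those p-values. In such bulk samples, less RNA per cell and fewer cells with the RNA cannot be told apart.

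Nearly all mitochondrial proteins are made in the cytosol and imported. The TOM complex of the outer membrane receives them through receptors such as Tomm70 and Tomm20 and passes them through the channel Tomm40. The TIM23 complex then takes proteins with a cleavable presequence into the matrix or inner membrane. The small TIM chaperones Timm9 and Timm10 escort hydrophobic proteins, most SLC25 carriers among them, to the TIM22 complex. The carriers so inserted exchange nucleotides, phosphate, amino acids, organic acids, cofactors and iron across the inner membrane. The translocases and most of the carriers are thus machinery and cargo of the same route. Members were taken by symbol and not by location, so not every carrier counted need follow it.

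Promoter sequences are shown for 5 members called below that hold an E-box, ETS or CRE motif, with these motifs in capitals and CCAAT unmarked. Each is 150 bases of RefSeq sequence on build GRCr8, 5′ to 3′ on the gene's own strand, from 120 bases before the annotated start. The small TIM genes Timm9 (chr6:95358866-95359015, minus strand), Timm10 (chr3:90315019-90315168, plus strand) and Timm8a1 (chrX:102015415-102015564, minus strand) hold the E-box CACGTG, and Timm10 also the ETS motif CCGGAAGT. The receptor gene Tomm70 (chr11:56886247-56886396, minus strand) holds the ETS motif. The carrier gene Slc25a33 (chr5:165502944-165503093, minus strand) holds the CRE motif TGACGTCA and an E-box.
Timm9: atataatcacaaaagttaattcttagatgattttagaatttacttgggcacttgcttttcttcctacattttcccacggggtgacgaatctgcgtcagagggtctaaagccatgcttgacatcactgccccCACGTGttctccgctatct
Timm10: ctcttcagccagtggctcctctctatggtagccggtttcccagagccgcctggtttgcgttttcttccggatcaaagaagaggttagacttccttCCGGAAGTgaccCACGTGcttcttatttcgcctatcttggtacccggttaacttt
Timm8a1: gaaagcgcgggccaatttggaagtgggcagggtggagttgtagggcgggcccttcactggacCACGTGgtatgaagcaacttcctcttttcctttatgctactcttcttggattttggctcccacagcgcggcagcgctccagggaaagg
Tomm70: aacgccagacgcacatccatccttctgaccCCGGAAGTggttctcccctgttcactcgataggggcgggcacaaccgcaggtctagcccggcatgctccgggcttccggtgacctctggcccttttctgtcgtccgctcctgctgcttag
Slc25a33: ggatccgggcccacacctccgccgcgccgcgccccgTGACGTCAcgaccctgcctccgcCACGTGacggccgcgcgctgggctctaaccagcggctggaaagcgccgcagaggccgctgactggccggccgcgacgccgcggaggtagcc

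The motifs were searched on both strands from 250 bases before to 50 after the start in the 54 members with a promoter in the table, 21 translocases and 33 carriers. The E-box CACGTG stood in 3 of 21 translocase promoters (14.3%), in 2 of 33 carrier promoters (6.06%) and in 6.65% of 27457 promoters of all genes. The ETS motif CCGGAAGT stood in 5 of 21 (23.8%), 1 of 33 (3.03%) and 4.01% of all promoters. The CRE motif stood in 0 of 21, 2 of 33 and 1.91%. The nuclear respiratory factor core CGCATGCG stood in 1 of each class and 1.81%, the FOXO motif GTAAACA in no member and 3.76%, and CCAAT in 9 of 21 (42.9%), 19 of 33 (57.6%) and 37.7%. Tomm40, Timm17a and Slc25a1, which also enter the results, hold CCAAT and none of the other motifs. These are matches of letters, and no test was made of them.

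The labelled cell type was checked on its markers. The mean level of 13 myotube markers lay between 9.09 and 10.49 in control and between 8.97 and 10.44 in insulin arrays. Fibroblast markers, 7 genes of which L6 cells may express several, lay at 10.51 to 11.06 and 10.38 to 10.95, and proliferation markers at 8.17 to 9.68 and 8.27 to 9.64. The endothelial and adipocyte markers measured all lay below the filter, the highest being Kdr at a mean level of 4.93. In insulin minus control over hours 1 to 8, 11 of 13 myotube markers were below 0, at a median of −0.15, and all 7 fibroblast markers, at a median of −0.13, though none of either passed the test (limma, 0 and 2 at an unadjusted p under 0.05). Over hours 5 to 8 Pdgfra alone of them was lower (−0.32). No myotube, proliferation or myoblast marker passed in either window (0 of each at an unadjusted p under 0.05), and of the macrophage markers, at mean levels of 4.97 to 5.36, Cd68 was 0.14 higher over hours 1 to 8. Of the 4 myoblast markers tested, Id1 and Id3 fell from time 0 to hours 5 to 8 in both cultures. Among these 4, 1 was above 0 in control and 2 in the insulin culture. The part of these markers in the results was not tested.

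In every letter some members lay apart between the cultures before insulin, and in the 12 arrays of letter b from time 0 to hour 5 the differences were alike after it. At time 0 the difference, insulin minus control on the log2 scale, was 0.41 in letter b for Tomm70 against 0.03 and −0.01 in letters a and c, and −0.71 for Slc25a1 against −0.00 and −0.22. For Tomm40 it was −0.44 against 0.23 and −0.06. Letter a had large values of its own, such as 0.79 for Slc25a13 against 0.06 in letter b and −0.15 in letter c. Over the 56 members the letter b difference at time 0 correlated with that over hours 1 to 5 at r = 0.86 (letters a and c 0.13 and 0.05), a description over genes that share the same arrays. Results are therefore given with all arrays and without these 12. At time 0 none of the 56 members differed between the cultures in limma's test, none of them at an unadjusted p under 0.05 either, as over all genes (0.0% higher and 0.0% lower after adjustment). Taken relative to the time 0 difference, no member passed the test over hours 1 to 8 or over hours 5 to 8 (limma, 0 and 4 at an unadjusted p under 0.05). Of all probe sets tested, 0 and 42 passed when taken this way, against 2671 and 2052 in the main test. With so few calls for any gene, this setting cannot set the members apart.

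Over hours 1 to 8, 5 of 22 translocases were higher with insulin and 1 was lower, and 3 of 34 carriers were higher and 2 lower (limma, Benjamini-Hochberg over all probe sets tested, adjusted p under 0.05). Over all 11577 genes the same test called 5.75% higher and 8.34% lower, beside 22.7% and 4.55% of the translocases and 8.82% and 5.88% of the carriers. The median difference was −0.00 for translocases, 0.04 for carriers and −0.00 for all genes, so that the translocases called higher stood within a class with 11 members above 0 and 11 below. Without the 12 arrays, only Timm9, Tomm70, Slc25a33 and Slc25a22 passed, all higher (all genes 2.03% higher, 3.43% lower). With the letter as a block, which pairs the cultures of a day, 24 members passed, 7 translocases and 7 carriers higher and 5 of each lower (all genes 11.9% higher, 18.6% lower). With 1 paired mean difference per letter, an alternative chosen after seeing the data, none passed (limma, 12 at an unadjusted p under 0.05). That setting called 152 of all probe sets tested, against 2671 in the main test. Without letter a all 11 were called, without letter b Timm9 and Slc25a33 alone of them, and without letter c Tomm70, Slc25a33 and Slc25a37. Calls over all probe sets tested moved too, to 4184 without letter a, 684 without b and 1289 without c, from 2671 with all arrays.

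Over hours 5 to 8, 5 translocases were higher and none was lower (7 and 0 at an unadjusted p under 0.05), while 3 carriers were higher and 2 lower (all genes 4.69% higher, 6.5% lower). The median difference was 0.06 for translocases and 0.01 for carriers. The translocases were Timm8a1, Timm9, Tomm40, Timm10 and Tomm70, and of the members called in either window 5 were called in both. Without the 12 arrays 9 of these 10 members passed, and Timm8a1 did not (0.49, adjusted p = 0.051; all genes 3.59% higher, 5.61% lower). With the letter block 19 members passed, 8 translocases and 6 carriers higher, 1 and 4 lower (all genes 10.3% higher, 14.8% lower). With 1 paired mean difference per letter Timm8a1, Timm9 and Slc25a33 passed. That setting called 649 of all probe sets tested, against 2052 in the main test. Timm9 and Slc25a33 also passed with any 1 letter left out, and the other 8 each lost their call without at least 1 letter. Calls over all probe sets tested were then 1638 without letter a, 994 without b and 1477 without c, against 2052 with all arrays.

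**Figure D1:**
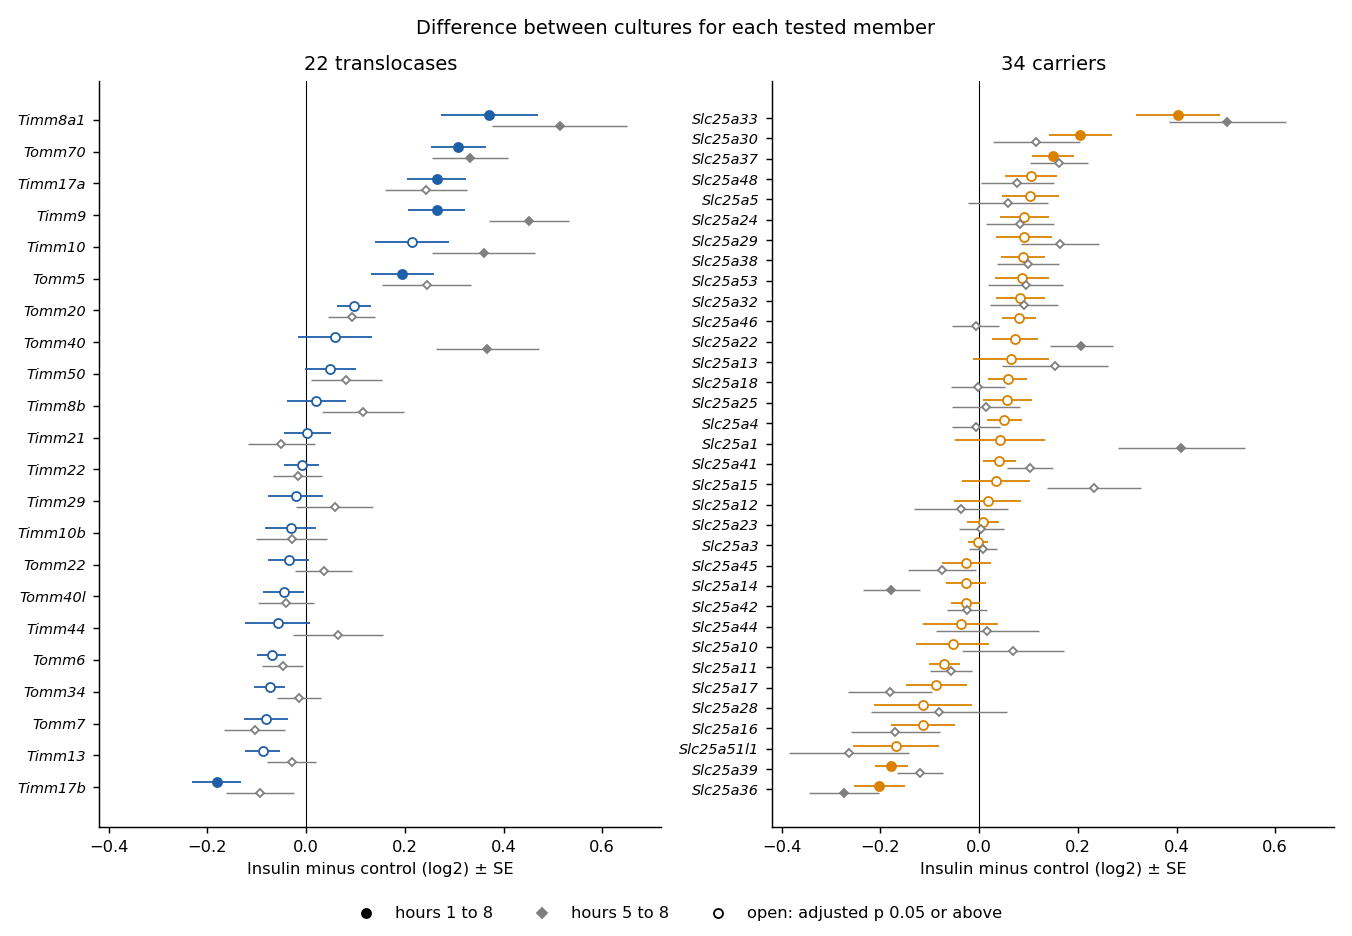
Insulin minus control (log2, horizontal axis) for each of the 56 members tested, translocases and carriers apart, over hours 1 to 8 (circles) and hours 5 to 8 (diamonds), with standard errors as bars and filled symbols where the adjusted p was under 0.05. Timm8a1 reached 0.51 and Slc25a33 0.50 over hours 5 to 8, and most other members lie near 0.

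The Tomm members were grouped by name under the TOM complex, Tomm34 included. Of these 9, 2 were higher over hours 1 to 8 and none lower (2 lower at an unadjusted p under 0.05). The median was −0.04 and the range −0.08 to 0.31. Tomm70, the receptor for carrier precursors, was at 9.77, 10.12 and 10.63 (lowest, median and highest of 24 control arrays) and at 10.12, 10.48 and 10.77 in the 23 insulin arrays. The groups overlapped, but the insulin array was the higher in 22 of 23 pairs of the same letter and hour. The difference was 0.31 (SE 0.056, adjusted p = 0.000152, 1.24-fold), and 0.12, 0.43 and 0.33 in letters a, b and c. Without the 12 arrays it was 0.26 (adjusted p = 0.0343). A second Tomm70 probe set gave 0.20 (SE 0.033, adjusted p = 5.6e-05).

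Tomm5, a small subunit of the complex, was at 10.13, 10.55 and 10.98 in control and 10.37, 10.86 and 11.05 in insulin arrays. Its difference was 0.19 (SE 0.064, adjusted p = 0.0395), higher in 18 of 23 pairs, and 0.21 without the 12 arrays, where it did not pass (adjusted p = 0.153). Tomm20, the presequence receptor, did not pass with its brightest probe set at 0.10 (SE 0.035, adjusted p = 0.0594), and its second probe set passed at 0.13 (adjusted p = 0.0216).

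Tomm40, the channel, did not pass over hours 1 to 8 (0.06, adjusted p = 0.673) and was 0.37 higher over hours 5 to 8 (SE 0.10, adjusted p = 0.0181, 1.29-fold). At hour 8, which the source labels and the methods place at minutes 440 to 480 (another label field gives an earlier first minute), the control arrays a, b and c were at 9.25, 9.20 and 9.25 and the insulin arrays at 9.99, 9.72 and 9.61. Over hours 6 to 8 all 9 insulin arrays of Tomm40 were above all 9 control arrays. Among the members this held for Tomm40 and Slc25a22 alone, and its share over all genes was not counted. The late difference of Tomm40 was largest in letter a (0.66, against 0.25 and 0.20). Its paralog Tomm40l was at −0.04 (adjusted p = 0.775). Tomm40 and the other members that the rule for named genes did not reach (Timm10, Tomm20, Tomm40l, Slc25a1, Slc25a14, Slc25a4, Slc25a5, Slc25a3, Slc25a28) were chosen after their values were seen.

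In the TIM23 complex, Timm17a and Timm17b, alternative forms of 1 subunit, went opposite ways. Timm17a was at 10.25, 10.45 and 10.78 in control and 10.25, 10.84 and 10.97 in insulin arrays, a difference of 0.26 (SE 0.060, adjusted p = 0.00237, 1.20-fold), higher in 21 of 23 pairs. Timm17b was at 7.97, 8.21 and 8.45 and at 7.70, 8.08 and 8.32, a difference of −0.18 (SE 0.049, adjusted p = 0.0117, 1.13-fold lower), lower in 17 of 23 pairs. Both differences were smallest in letter a, at 0.02 and −0.03, and in letter b they were 0.34 and −0.32. Letter b already showed 0.32 and −0.22 at time 0. Without the 12 arrays neither passed (0.22, adjusted p = 0.103, and −0.11, adjusted p = 0.406). Over hours 6 to 8 Timm17a was higher in 9 of 9 pairs and Timm17b lower in 6 of 9, at differences of −0.02, −0.06 and −0.04 in letters a, b and c. The other 3 members, Timm21, Timm44 and Timm50, did not pass.

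**Figure D2:**
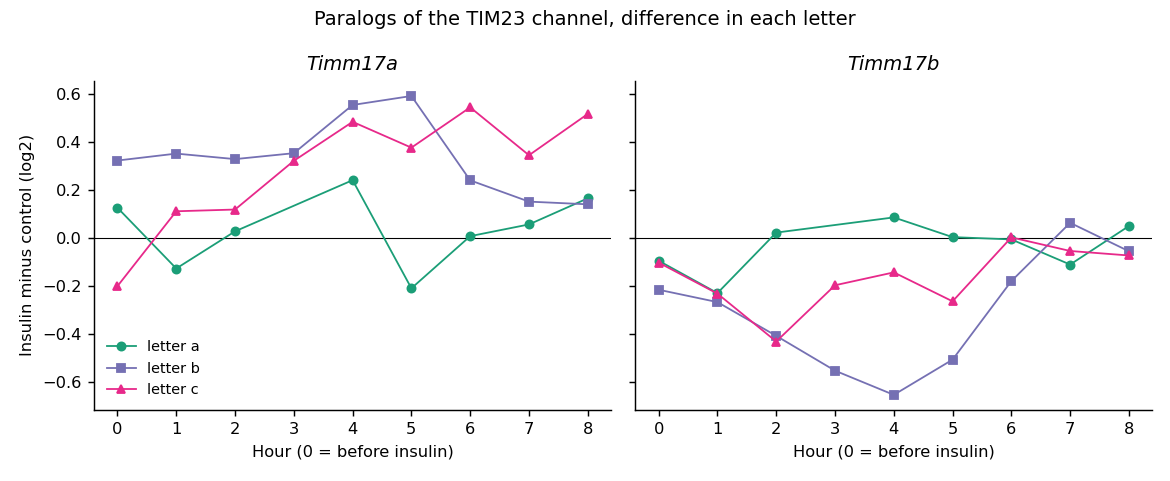
Insulin minus control (log2, vertical axis) of Timm17a and Timm17b at each hour (horizontal axis), with 1 point per letter. The points of letter b lie away from 0 from time 0 to hour 5, at 0.32 for Timm17a and −0.22 for Timm17b at time 0.

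In the TIM22 complex and its small TIM chaperones, 2 of 8 members were higher over hours 1 to 8 and 3 of 8 over hours 5 to 8, none lower (1 and 0 lower at an unadjusted p under 0.05). Timm9 was at 8.20, 8.62 and 9.20 in control and 8.61, 8.98 and 9.17 in insulin arrays over hours 1 to 8, a difference of 0.26 (SE 0.058, adjusted p = 0.00177), and 0.30 without the 12 arrays (adjusted p = 0.00873). Over hours 5 to 8 the difference was 0.45 (SE 0.081, adjusted p = 0.000145, 1.37-fold), 0.48, 0.45 and 0.43 in letters a, b and c and higher in 12 of 12 pairs. At hour 8 the control arrays were at 8.35, 8.48 and 8.20 and the insulin arrays at 9.05, 8.98 and 8.67, without overlap.

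Timm10, its partner in the hexameric chaperone, was at 8.85, 9.45 and 9.73 in control and 9.46, 9.73 and 9.98 in insulin arrays over hours 5 to 8. The difference was 0.36 (SE 0.10, adjusted p = 0.0208, 1.28-fold), higher in 12 of 12 pairs, and over hours 1 to 8 it was 0.21 (adjusted p = 0.0542, 0.000979 with the letter block). Timm8a1, a small TIM that pairs with Timm13, was at 7.95, 8.59 and 9.17 in control and 8.16, 9.13 and 9.28 in insulin arrays over hours 1 to 8, a difference of 0.37 (SE 0.098, adjusted p = 0.00922, 1.29-fold). In hours 5 to 8 it was 0.51 (SE 0.14, adjusted p = 0.0106, 1.43-fold), higher in 12 of 12 pairs. Its second probe set gave 0.32 and 0.46 (adjusted p = 0.0464 and 0.0467). Timm13 itself was at −0.09 (adjusted p = 0.101) over hours 1 to 8, and passed as lower with the letter block and without letter a.

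Among the carriers, the nucleotide and cofactor carriers held the highest and the lowest difference. Slc25a33, a pyrimidine nucleotide carrier, was at 6.10, 6.85 and 7.46 in control and 6.77, 7.23 and 7.51 in insulin arrays, a difference of 0.40 (SE 0.085, adjusted p = 0.00100, 1.32-fold), higher in 21 of 23 pairs. In hours 5 to 8 it was 0.50 (SE 0.12, adjusted p = 0.00332, 1.42-fold), with 12 of 12 pairs higher, and without the 12 arrays it still passed in both windows (adjusted p = 0.0161 and 0.0173). Slc25a36, its paralog with a similar substrate range, was at 10.10, 10.48 and 10.91 and at 10.13, 10.29 and 10.57, a difference of −0.20 (SE 0.051, adjusted p = 0.00621, 1.15-fold lower), lower in 19 of 23 pairs. For hours 5 to 8 it was −0.27 (SE 0.071, adjusted p = 0.00812). Its second probe set gave −0.07 and −0.22, neither passing.

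In the other carrier groups single members passed. Slc25a39, which serves mitochondrial glutathione import, was at 9.83, 9.97 and 10.14 in control and 9.64, 9.78 and 9.97 in insulin arrays, a difference of −0.18 (SE 0.033, adjusted p = 0.000262, 1.13-fold lower), lower in 18 of 23 pairs. The values by letter were −0.02 (a), −0.26 (b) and −0.23 (c), with −0.13 without the 12 arrays (adjusted p = 0.0568), and its dim second probe set was at 0.07. Slc25a37, the iron carrier mitoferrin-1, was 0.15 higher (SE 0.042, adjusted p = 0.0142), and its paralog Slc25a28 was at −0.11 (adjusted p = 0.506). Slc25a30, an uncoupling-protein-like carrier, was 0.20 higher (SE 0.064, adjusted p = 0.0292), at 0.02, 0.31 and 0.22 in letters a, b and c. Slc25a37 and Slc25a30 did not pass without the 12 arrays (adjusted p = 0.355 and 0.404).

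Later in the course Slc25a1, the citrate carrier, passed as well: at hour 8 the control arrays a, b and c were at 8.59, 8.31 and 8.73 and the insulin arrays at 9.57, 8.70 and 9.33. The groups overlapped at that hour, and over hours 5 to 8 the difference was 0.41 (SE 0.13, adjusted p = 0.0340, 1.33-fold), at 0.85, 0.04 and 0.34 in letters a, b and c. Slc25a22, a glutamate carrier, was at 8.57, 8.74 and 9.09 and at 8.82, 8.94 and 9.18, a difference of 0.21 (SE 0.064, adjusted p = 0.0319), at 0.39, 0.08 and 0.15 in letters a, b and c. Without letter a Slc25a1 was at 0.19 (adjusted p = 0.497) and Slc25a22 at 0.12 (adjusted p = 0.385), and without letter c neither passed (adjusted p = 0.239 and 0.181). Slc25a14, also uncoupling-protein-like, was at 7.22, 7.34 and 7.62 and at 7.07, 7.19 and 7.36, a difference of −0.18 (SE 0.058, adjusted p = 0.0419), lower in 11 of 12 pairs. None of the 3 ADP/ATP and phosphate carriers tested passed, with differences over hours 1 to 8 of 0.05 for Slc25a4 (SE 0.035), 0.10 for Slc25a5 (SE 0.059) and −0.00 for Slc25a3 (SE 0.020).

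**Figure D3:**
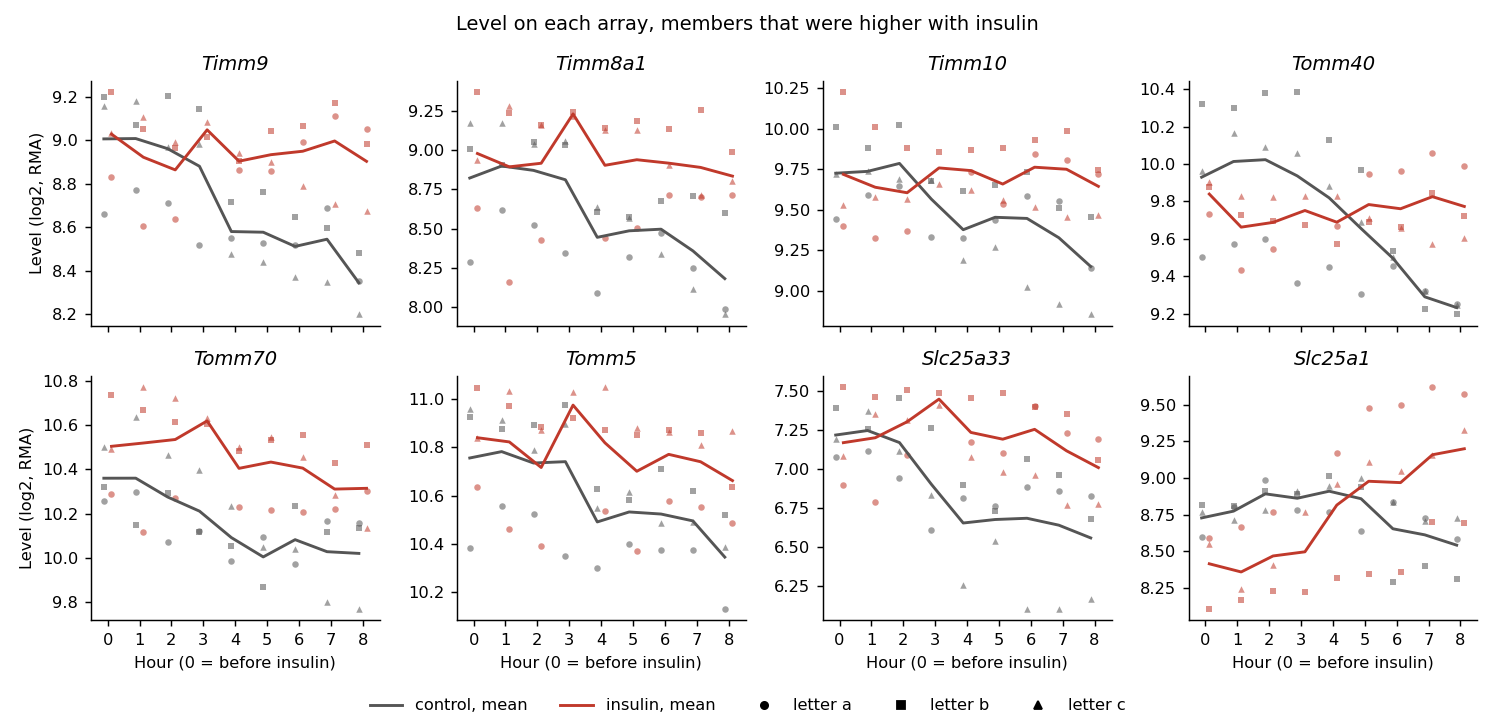
Log2 level (vertical axis) by hour (horizontal axis) in both cultures of 8 members, with 1 point per array marked by letter and lines through the group means; the insulin mean at hour 3 holds letters b and c only. The control line of Timm9 goes from 9.01 at time 0 to 8.34 at hour 8, while the insulin line ends at 8.90.

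The 2 classes were then followed by hour, with differences taken within letters. The median translocase difference was 0.02 at time 0, −0.08 at hour 1, −0.09 at hour 2, −0.08 at hour 3, 0.04 at hour 4, −0.04 at hour 5, 0.03 at hour 6, 0.07 at hour 7 and 0.11 at hour 8. Below 0 stood 18 of 22 translocases at hour 2, and above 0 stood 19 of 22 at hour 8. By letter the hour 8 median was 0.11 (a), 0.00 (b) and 0.24 (c), so that it rested on a and c. The median carrier difference stayed between −0.03 and 0.05 at all 9 times, and was 0.01 at hour 8. At single hours no member passed the test (limma, 35 of 448 tests of a member at an hour at an unadjusted p under 0.05; the lowest adjusted p was 0.112, Timm9 at hour 8). In the test of any difference over the 8 hours, Timm9 passed as higher (adjusted p = 0.025) and Slc25a39 as lower (adjusted p = 0.0421), beside 1.12% and 1.94% of all genes. Without the 12 arrays of letter b neither did (adjusted p = 0.105 and 1.00, all genes 0.32% higher and 1.03% lower).

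**Figure D4:**
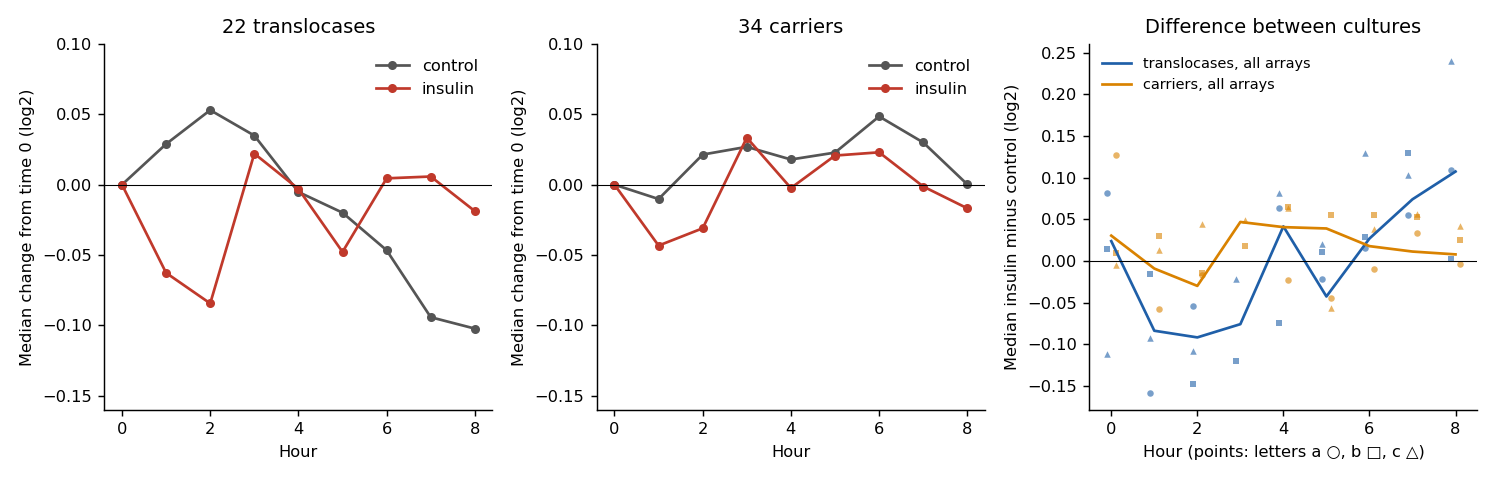
Class medians of the 22 translocases and 34 carriers (log2, vertical axis) by hour: the change from time 0 in the control culture, the same in the insulin culture, and insulin minus control with 1 point per letter. In control the translocase median reaches −0.10 at hour 8, and with insulin it ends at −0.02. Within letters a, b and c the hour 8 medians were −0.07, −0.14 and −0.14 in control and 0.00, −0.17 and 0.13 with insulin.

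Over hours 6 to 8, insulin was the higher in all 9 pairs of letter and hour for 8 of 22 translocases and the lower in all for none, against 5 and 5 of 34 carriers (all genes 6.08% higher, 9.49% lower). The 8 were Timm8a1, Timm9, Timm10, Timm17a, Timm50, Tomm5, Tomm40 and Tomm70. The class medians differed in time: from hours 1 and 2 to hours 5 to 8 the translocase difference changed by a median of 0.15, with 20 of 22 above 0, and the carrier difference by 0.03, with 19 of 34 above 0. No test was made of the class values, since the classes were chosen with results known. Over hours 1 and 2 no member passed (0 translocases and 1 carrier higher, 4 and 3 lower at an unadjusted p under 0.05), nor did any gene (0.0% each way).

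The change of the difference from early to late passed for Tomm40 (0.71, SE 0.18, adjusted p = 0.0298), Timm9 (0.54, SE 0.14, adjusted p = 0.0329) and Slc25a1 (0.83, SE 0.22, adjusted p = 0.0395), all upward (all genes 1.17% upward, 1.11% downward). Tomm40 was at −0.34 and Slc25a1 at −0.42 over hours 1 and 2. The letter b arrays enter both early values. Without the 12 arrays the changes were 0.62, 0.53 and 0.80 and none passed (adjusted p = 0.242, 0.254 and 0.246). Few of all genes passed in that setting either (0.0259% upward, 0.0777% downward). With the letter block 12 members passed, 11 upward, Timm8a1, Timm8b, Timm10, Tomm5 and Tomm22 among them, and Slc25a51l1 downward (all genes 7.61% upward, 6.28% downward).

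In the control culture alone, hours 5 to 8 were set against time 0. Timm9 fell by 0.51 (SE 0.13, adjusted p = 0.00957) and Slc25a22 by 0.36 (SE 0.10, adjusted p = 0.0230), while no member rose (0 translocases and 5 carriers at an unadjusted p under 0.05; all genes 4.5% higher, 3.05% lower). Time 0 of Timm9 stood at 8.66, 9.20 and 9.16 in letters a, b and c, and its control arrays of hour 8 all lay below that range. Tomm40 was at −0.51 (adjusted p = 0.0554) and Slc25a33 at −0.58 (adjusted p = 0.0528). With the letter block 13 members passed, and lower were Timm8a1, Timm9, Timm10, Tomm5, Tomm40, Tomm70, Slc25a22, Slc25a25, Slc25a29 and Slc25a33, while Slc25a16, Slc25a17 and Slc25a18 were higher (all genes 14.0% higher, 8.08% lower). With 1 paired mean difference per letter no member passed (limma, 12 at an unadjusted p under 0.05), Timm9 and Slc25a22 being at adjusted p = 0.0754 and 0.089. Paired in this way, 981 of all probe sets tested passed, against 1423 in the main test. Without the 12 arrays Timm9 was at −0.44 (adjusted p = 0.18) and Slc25a22 at −0.27 (adjusted p = 0.154). In that setting 1.29% of all genes were higher and 0.821% lower. All 10 proliferation markers were above 0 in the same contrast, at a median of 0.31, none passing. In the insulin culture 8 of them were above 0, at a median of 0.21, none passing. Insulin minus control at time 0 was above 0 for all 10, at a median of 0.20, none passing. The part of these markers in the changes was not tested.

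In the insulin culture the same times differed for no member (limma, 0 translocases at an unadjusted p under 0.05, 2 carriers higher and 1 lower), beside 0.605% and 1.0% of all genes. Timm9 was at −0.08, Timm10 at −0.01, Timm8a1 at −0.08, Tomm40 at −0.05 and Slc25a33 at −0.03. These means average letters that differ in sign. In letters a, b and c Timm9 was at 0.17, −0.15 and −0.26, and Timm10 at 0.33, −0.34 and −0.03. Tomm40 was at 0.26, −0.15 and −0.27, Slc25a33 at 0.33, −0.20 and −0.21, and Timm8a1 at 0.03, −0.23 and −0.05. Slc25a1 was at 0.66 with insulin (adjusted p = 0.0988, 0.00334 with the letter block, 0.113 with 1 paired mean difference per letter) and −0.06 in control. The control arrays of hours 5 to 8 enter both the fall in control and the late difference between the cultures, so these are not independent values. As means over the letters, all translocases in the insulin culture lay between −0.14 and 0.10.

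**Figure D5:**
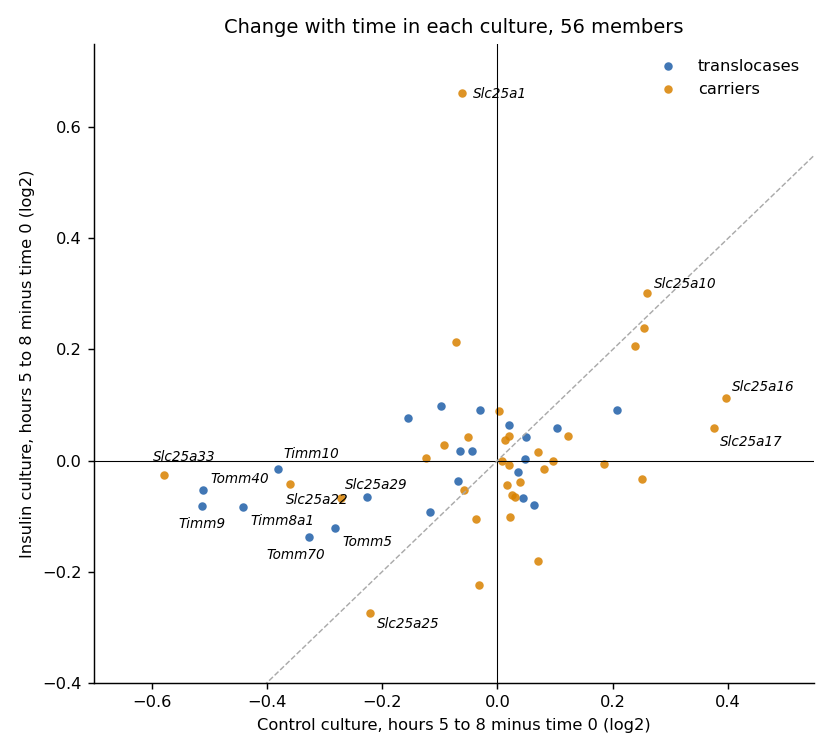
Change from time 0 to hours 5 to 8 (log2) in the control culture (horizontal axis) against the insulin culture (vertical axis) for the 56 members, with a dashed line where both are equal. Timm9 lies at −0.51 and −0.08, and Slc25a1 at −0.06 and 0.66.

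The partners of the translocases in import were counted from a list of 23 genes, of which 22 were tested. For hours 1 to 8 the test called 2 higher and none lower (5 and 2 at an unadjusted p under 0.05), at a median of 0.00, where over all genes it called 5.75% higher and 8.34% lower: Mtx1, of the sorting and assembly machinery, at 0.23 (SE 0.052, adjusted p = 0.00261) and Grpel2, a nucleotide exchange factor of mitochondrial Hsp70, at 0.16 (adjusted p = 0.0228). In hours 5 to 8 it called 3 higher (all genes 4.69%): Hspa9, the Hsp70 of the matrix, at 0.32 (adjusted p = 0.00211), Mtx1 at 0.32 (adjusted p = 0.00267) and the chaperonin Hspd1 at 0.17 (adjusted p = 0.0373). In control Hspa9 fell by 0.38 from time 0 (adjusted p = 0.0355). Of 17 tested transport proteins outside the rule, 1 was higher over hours 1 to 8 (Letm1, 0.11) and 4 were lower, the serine transporter family member Sfxn3 most, at −0.28 (adjusted p = 3e-06). Without the 12 letter b arrays, Hspa9 and Mtx1 passed over hours 5 to 8 (adjusted p = 0.00689 and 0.031) and Sfxn3 over hours 1 to 8 (adjusted p = 0.00114), while Mtx1 and Grpel2 over hours 1 to 8, Letm1, Hspd1 and the fall of Hspa9 did not (adjusted p = 0.0813, 0.398, 0.318, 0.099 and 0.378).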

How the data were processed

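Pooled RNA of L6 cells was hybridised to 53 Affymetrix rat expression arrays, 1 per culture, hour and letter. The deposited values are log2 intensities of 31099 probe sets, made by the authors with RMA (version not given in the sources used here). Array medians lay between 6.30 and 6.37. The number of arrays per group limits precision.

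Gene names came from the platform annotation: 20832 probe sets had 1 symbol, 436 several and 9831 none. The 21958 brightest probe sets by mean over all arrays, without the 57 controls, were tested (lowest mean 5.04), the number the study's methods give after their own filter. limma 3.58.1 (R 4.3.3) fitted 1 mean for each of 18 groups of culture and hour, with a variance trend, two-sided tests and Benjamini-Hochberg adjustment (threshold 0.05). The fit was tested on simulated data with independent noise on each array and no day effect. That test therefore cannot show how the fit handles deviations shared within a day. Deviations of arrays of the same letter and hour correlated at 0.21 to 0.79 in 26 of 26 pairs, so the letters, taken here as days, pair the cultures.

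Members and lists were chosen with earlier results of these data known. Named were up to 5 rises and 4 falls of called members per class over hours 1 to 8, 2 members that the study names (Tomm70, Slc25a39) and up to 2 called changes in control each way. Promoters came from RefSeq (GRCr8). Alternatives tried were the letter as a block, the letter and hour as a block, 1 mean per letter, differences relative to time 0, no filter, a stricter filter, centred arrays, all probe sets of a gene averaged, no variance trend, each letter left out and the 12 letter b arrays left out.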

Additional observations from a re-analysis of the deposited data

Results flagged for a closer look

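In limma's contrast of the late with the early difference, 3 members differed between the hours (adjusted p under 0.05): the difference, insulin minus control, was higher over hours 5 to 8 than over hours 1 and 2 by 0.83 on the log2 scale for Slc25a1, by 0.71 for Tomm40 and by 0.54 for Timm9. Arrays of letter b, in which differences of time 0 were found again over hours 1 to 5, enter the early values of all 3. Without those arrays of time 0 to hour 5 the changes were 0.80, 0.62 and 0.53, and none passed. Of all genes, 0.0259% passed upward and 0.0777% downward in that setting, against 1.17% and 1.11% with all arrays.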

How the results depend on the processing

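The number of members called was recomputed under each alternative. Over hours 1 to 8 (11 members) it was 24 with the replicate letter as a block, 23 with letter and hour as a block, 4 without the 12 letter b arrays, 0 with 1 mean per letter, 0 with the paired difference per letter (added after seeing the data), 0 relative to time 0, and 2 to 18 with each letter left out. Over hours 5 to 8 (10) it was 19, 18, 0 with 1 mean per letter, 3 paired (Timm8a1, Timm9, Slc25a33), 0 relative to time 0 and 4 to 8 with a letter left out. At any hour (2) it was 13, 10, 0 relative to time 0, 0 without the 12 arrays, 1 without the filter, 1 on centred arrays and 0 to 6. Over hours 1 and 2 (0) it was 1 with the block and 0 to 2. The change of the difference (3) had 12, 10, 0, 0 and 0 without the 12 arrays, and 0 to 2. Change in control (2) had 13 with the block, 0 with 1 mean, 0 paired, 0 without the 12 arrays, 4 with the 15000 brightest probe sets and 0 to 8; change with insulin (0) had 2 with the block and 0 to 1. At time 0 all settings gave 0. With 1 mean per letter no probe set at all passed in any contrast, so its values of 0 cannot set the members apart. Relative to time 0, no probe set passed over hours 1 to 8 and 42 did over hours 5 to 8, so the same holds there. The paired difference per letter called 152 of all probe sets tested over hours 1 to 8 and 649 over hours 5 to 8. Of the 12 members reached by the rule for named genes only Slc25a22 over hours 1 to 8, not called, turned sign: its values with a letter left out ran from −0.022 (without letter a) to 0.16. The cause of these moves was not tested. The differences of these 12 over hours 1 to 8 kept direction and call under both blocks, the stricter filter, centring and no variance trend.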
